A study of Mus musculus with 12 samples.

Results

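Enzymes that modify foreign and endogenous small molecules were followed across the 4 groups of sorted small intestinal epithelial cells of the series. Members were taken by gene name: the cytochrome P450 families *Cyp1* to *Cyp4* (82 genes), the UDP-glucuronosyltransferase families *Ugt1* and *Ugt2* (19 genes), the glutathione S-transferases (*Gst*, 23 genes) and the sulfotransferases (*Sult*, 21 genes), leaving out 1 name marked as a pseudogene. This gave 145 of the 34245 genes counted, and the rule used no measured value. A matching name does not show that a gene makes an enzyme of that family, as for *Gstcd* and *Cyp4x1os*, which were kept as members. RNAseq libraries were made from sorted stem cells of the intestine (ISC) and from villus cells called adult enterocytes (AE), of male C57BL/6 mice of about 8 months (young) and about 27 months (aged), with 3 libraries in each of the 4 groups. All mice, young and aged, carried the Lgr5-EGFP-IRES-creERT2 knock-in allele and were fed freely. ISC were GFP-high, DAPI-negative cells of crypt suspensions, so that GFP from the *Lgr5* locus chose them, and they were not stained for CD45 or CD31. AE were Epcam-high cells of villus suspensions negative for CD31, CD45 and DAPI, a gate that holds every Epcam-high villus cell and not enterocytes alone. The study's methods list 3 ages for the RNAseq animals of each cohort but tie no library to an animal, so ISC and AE libraries may share animals, and P-values measure the spread between these libraries. In 8 of the 12 sample titles the code and the words name different groups, so each column was assigned to the group its own name spells, and libraries are numbered here as in those column codes (1, 2 and 3 in young mice, 1, 3 and 5 in aged mice).

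Xenobiotic metabolism is usually divided into phase I, in which cytochrome P450 enzymes of the endoplasmic reticulum oxidise a compound, and phase II, in which a transferase joins it to a polar group: glucuronic acid (UGT), glutathione (GST) or sulfate (SULT). In the small intestine this machinery is known to lie mainly in the absorptive cells of the villus, which meet drugs and food constituents before the liver does. Several of these enzymes also act on hormones, bile acids, bilirubin, retinoids and fatty acid derivatives, and many are induced through the receptors AHR, PXR (*Nr1i2*), CAR (*Nr1i3*) and PPARα (*Ppara*) or the stress-responsive factor NRF2 (*Nfe2l2*).

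The libraries held between 11893817 and 110794420 counts, and young AE 3 was the deepest. Levels are CPM (counts scaled to a common library size with TMM factors), and are given with the SD over n = 3 libraries. A gene at 3 counts or fewer in a library counted as being at the limit of detection, a limit that covers counting error only. *Lgr5*, the stem cell marker, averaged 98.7 ± 31.4 CPM in young and 119 ± 24.5 CPM in aged ISC, against 2.44 ± 2.11 and 0.966 ± 0.387 CPM in AE. The enterocyte hydrolase *Sis* was at 458 ± 204, 380.0 ± 275, 6027 ± 2259 and 7413 ± 57.5 CPM in the same order. Of 14 stem cell markers, 13 were lower in AE at each age, and 20 of 20 enterocyte markers were higher. The 20 enterocyte markers summed to between 2454 and 11558 CPM in single ISC libraries, against 79672 to 128035 CPM in AE. The 8 goblet cell markers summed to 28160 to 57109 CPM in AE and 1398 to 2247 CPM in ISC. The 6 Paneth cell markers with a row summed to 52.0 to 227 CPM in AE and 545 to 1608 CPM in ISC. The 9 enteroendocrine markers summed to 3232 to 12170 CPM in AE and 269 to 935 CPM in ISC, and the 8 tuft cell markers to 339 to 1038 and 133 to 440 CPM. The AE gate thus also held RNA of other villus cell types, goblet and enteroendocrine cells among them. The ISC libraries too held reads of goblet, Paneth, enteroendocrine and tuft cell markers. The 8 liver and pancreas markers *Alb*, *Ttr*, *Serpina1c*, *Cps1*, *Ctrb1*, *Cela1*, *Prss2* and *Cpa1*, of which *Cps1* is also made by crypt epithelium, summed to 178 to 3533 CPM, and *Prss2* and *Cpa1* had no count in 3 of the 4 groups. Bulk levels cannot tell a change in the number of cells of a type from a change in RNA per cell.

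Of the 145 members, 27 had no count in any library, 15 had a total of 1 to 9 counts and 103 had 10 or more. The 27 included 13 of the 21 sulfotransferases, among them all 8 genes of the *Sult2a* cluster. Of all members, 35 were at 3 counts or fewer in every library. A mean of at least 1 CPM was reached by 69 members in young ISC, 67 in aged ISC and 73 in each of the AE groups. A mean of at least 100 CPM was reached by 16 members in young and 15 in aged ISC, and by 45 and 44 in AE. Without the 9 *Ugt1* rows, whose reads overlap, the members together took 0.313% of the scaled counts in young and 0.245% in aged ISC, and 1.98% in young and 2.20% in aged AE.

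Levels of different genes were compared per kilobase of exon in GENCODE M21, with the *Ugt1a* locus, whose rows share exons as described below, entered once as its *Ugt1a1* row. In young ISC the highest member was *Gsto1*, a thioltransferase of the omega class, at 189 ± 39.1 CPM per kb, followed by *Ugt1a1* at 185 ± 91.4, *Gstm3* at 162 ± 196 and *Gstm1* at 94.6 ± 95.4 CPM per kb. The libraries of these 4 overlapped in level. In aged ISC *Gsto1* at 178 ± 32.7 and *Ugt1a1* at 172 ± 62.3 CPM per kb led again. In young AE the order was led by *Cyp4f14*, which hydroxylates leukotriene B and other fatty acid derivatives at their end carbon, at 999.6 ± 30.0 CPM per kb. *Gstm3* at 936 ± 914, *Ugt1a1* at 695 ± 275, *Gstm1* at 551 ± 725 and *Cyp3a13* at 475 ± 91.1 CPM per kb came next, and the libraries of these followers overlapped in level. Those of *Cyp4f14* spanned 979 to 1034 CPM per kb, within the spans of *Gstm3* (399 to 1991) and *Gstm1* (121 to 1388.5). They also overlapped the span of *Ugt1a1* (492 to 1008), so the first place rests on the means alone. In aged AE *Cyp4f14* stood at 1141 ± 117 CPM per kb, before *Ugt1a1* at 771 ± 253, *Gstm3* at 723 ± 374, *Cyp3a13* at 594 ± 126 and *Cyp4v3* at 502 ± 53.4. The libraries of *Cyp4f14* (1042 to 1271) and *Gstm3* (342 to 1090) overlapped in level there too. Members of the *Ugt*, *Gst* and *Sult* families held 7 of the 10 highest places per kilobase in ISC at each age, against 4 of 10 in AE at each age. The thioltransferase *Gsto1* is among the 7 in ISC and not among the 4 in AE.

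Some rows cannot be read as separate genes. The 9 *Ugt1a* rows (chromosome 1, 88055388 to 88220002) each share exons of the locus with the other 8. The largest overlap with any 1 other row was 50.3% to 60.6% of a row's exon bases. The counts of the 9 rows were accordingly close: the lowest row of a library held 78.8% to 83.7% of the highest. Reads beyond the lowest row came mostly from *Ugt1a7c*, *Ugt1a1*, *Ugt1a9* and *Ugt1a6a*, and the rows are counted once where stated. *Ugt2a1* and *Ugt2a2* share 1771 exon bases in the same way. These 11 rows aside, 133 members had a GENCODE transcript, and their stretches of 50 bases, the read length, were looked up in all genes that do not overlap them in position. Of the 133, 32 had no stretch that another gene also holds, 48 had over 10% of such stretches and 8 had over 50%. Among genes named here the share was 98.6% for *Cyp3a41a*, 93.5% for *Cyp3a41b*, 90.5% for *Gsta1*, 60.3% for *Cyp2c40*, 54.3% for each of *Gstp2* and *Cyp2c69*, and 52.8% for *Cyp2c67*. It was 49.8% for *Gsta2*, 43.8% for *Cyp4a32* (mostly with *Cyp4a10*), 43.3% for *Cyp2c68*, 41.7% for *Ugt2b5*, 37.4% for *Ugt2b38*, 33.7% for *Gstp1*, 29.8% for *Cyp4a10*, 28.8% for *Gstm3*, 26.8% for *Cyp3a25* and 20.6% for *Cyp2c65*. Only uniquely mapped reads were counted, so levels of these genes are uncertain.

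Promoters were read from the RefSeq table (GRCm38.p6), which held 123 of the 145 members, as the 250 bases before the start. They were searched on both strands for 5 motifs: the core GCGTG of the xenobiotic response element that AHR binds, the antioxidant response element TGACNNNGC of NRF2, CAAAGTCCA for HNF4, GTTAATNAT for HNF1 and TTTATNG for CDX. GCGTG and the antioxidant motif can share bases, as in *Gstm5*. The HNF4 motif was in 10 of 123 member promoters (8.13%), against 0.374% of all 27025 promoters and 0.784% of the promoters of all genes higher in AE at both ages. The 10 were 6 genes of the *Cyp2c* cluster (*Cyp2c40*, *Cyp2c65*, *Cyp2c67*, *Cyp2c68*, *Cyp2c69* and *Cyp2c70*) and 4 of the *Cyp3a* cluster (*Cyp3a11*, *Cyp3a16*, *Cyp3a41a* and *Cyp3a41b*), which share ancestry. The HNF1 motif was also in 10 member promoters (8.13%, against 0.784% of all): *Cyp4a30b*, *Cyp4a32*, *Sult1d1*, 4 *Sult2a* genes, *Ugt1a1*, *Ugt1a9* and *Ugt1a10*. The CDX motif was in 10.6% of members and 10.2% of all promoters. The GCGTG core was in 17.1% of member promoters and 28.3% of all, and the antioxidant motif in 2.44% and 10.1%. A match is a description of the letters only.

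Promoter stretches of 7 members are shown because the results below turn on these genes, each cut to bases that no GENCODE exon covers, from the far end towards the start, with matched motifs in capitals. *Cyp1a1* (chr9:57697363-57697612, plus strand) holds a GCGTG core 54 bases before the start. The letters CTATAAA, which begin 31 bases before the start, match the CDX motif in reverse, by letters only. The deposited gene span begins further upstream. *Cyp2c65* (chr19:39060756-39061005, plus strand) and *Cyp2c70* (chr19:40187334-40187536, minus strand) both hold the HNF4 motif, and differed in opposite directions between ISC and AE. *Sult1d1* (chr5:87569028-87569256, minus strand) holds the HNF1 motif and a core in reverse, and *Ugt1a1* (chr1:88211709-88211958, plus strand) the HNF1 motif in reverse. *Gsta3* (chr1:21240335-21240584, plus strand) holds the antioxidant motif. *Cyp2e1* (chr7:140763569-140763738, plus strand) holds no match in its whole window.
Cyp1a1: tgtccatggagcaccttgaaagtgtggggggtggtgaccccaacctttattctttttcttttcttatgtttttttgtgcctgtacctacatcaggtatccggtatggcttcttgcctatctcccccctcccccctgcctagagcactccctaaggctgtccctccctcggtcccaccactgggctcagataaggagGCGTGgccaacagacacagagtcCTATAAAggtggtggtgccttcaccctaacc
Cyp2c65: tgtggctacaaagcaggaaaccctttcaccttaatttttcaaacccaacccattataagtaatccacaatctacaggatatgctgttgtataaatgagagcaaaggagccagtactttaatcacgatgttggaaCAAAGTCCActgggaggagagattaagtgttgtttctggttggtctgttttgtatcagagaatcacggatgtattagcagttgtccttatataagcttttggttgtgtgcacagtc
Cyp2c70: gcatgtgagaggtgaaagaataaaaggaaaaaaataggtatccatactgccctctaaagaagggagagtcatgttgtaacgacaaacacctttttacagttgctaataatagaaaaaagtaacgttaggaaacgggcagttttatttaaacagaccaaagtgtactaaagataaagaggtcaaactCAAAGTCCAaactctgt
Sult1d1: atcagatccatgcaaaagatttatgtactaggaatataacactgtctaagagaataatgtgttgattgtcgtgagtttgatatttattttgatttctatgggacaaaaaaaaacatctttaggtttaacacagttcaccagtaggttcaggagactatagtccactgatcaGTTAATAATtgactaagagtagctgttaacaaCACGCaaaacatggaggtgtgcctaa
Ugt1a1: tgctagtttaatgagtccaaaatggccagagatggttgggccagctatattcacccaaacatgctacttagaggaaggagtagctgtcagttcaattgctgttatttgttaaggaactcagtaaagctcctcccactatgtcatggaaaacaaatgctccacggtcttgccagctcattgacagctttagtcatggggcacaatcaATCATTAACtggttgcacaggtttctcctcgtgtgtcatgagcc
Gsta3: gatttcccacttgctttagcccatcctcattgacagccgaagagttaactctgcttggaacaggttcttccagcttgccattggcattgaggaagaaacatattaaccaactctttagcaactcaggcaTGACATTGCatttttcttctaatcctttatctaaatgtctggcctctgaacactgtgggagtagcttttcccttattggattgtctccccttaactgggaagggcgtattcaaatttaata
Cyp2e1: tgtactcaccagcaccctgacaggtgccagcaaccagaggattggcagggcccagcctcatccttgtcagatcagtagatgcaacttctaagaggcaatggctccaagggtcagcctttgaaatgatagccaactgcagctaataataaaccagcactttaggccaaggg

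AE were compared with ISC at each age with edgeR's quasi-likelihood test, adjusted over all genes tested (FDR, threshold 0.05), and log2 fold changes or ratios, of AE over ISC or of aged over young, are given with their standard error (SE). Most detected members were higher in AE. In young mice 58 of the 100 members tested were called higher in AE and 6 lower, beside 27.7% of all 16681 genes higher and 25.4% lower. In aged mice 68 of 92 were higher and 10 lower, beside 30.0% and 34.1% of 15855 genes. All 58 members called higher in young mice were also called higher in aged mice, where they made up 85.3% of the calls, and all 6 lower ones were again lower (60.0% of those of aged mice). The median log2 fold change of the tested members was 2.62 at both ages, against 0.15 and -0.13 over all genes. With members at the limit of detection in 1 group set to the bound this allows, the medians were 1.92 and 2.14. With the *Ugt1a* rows counted once, 50 of 92 were higher in young and 60 of 84 in aged mice. Without young AE 3 the median in young mice was 1.46 with 47 members called higher.

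**Figure D1:**
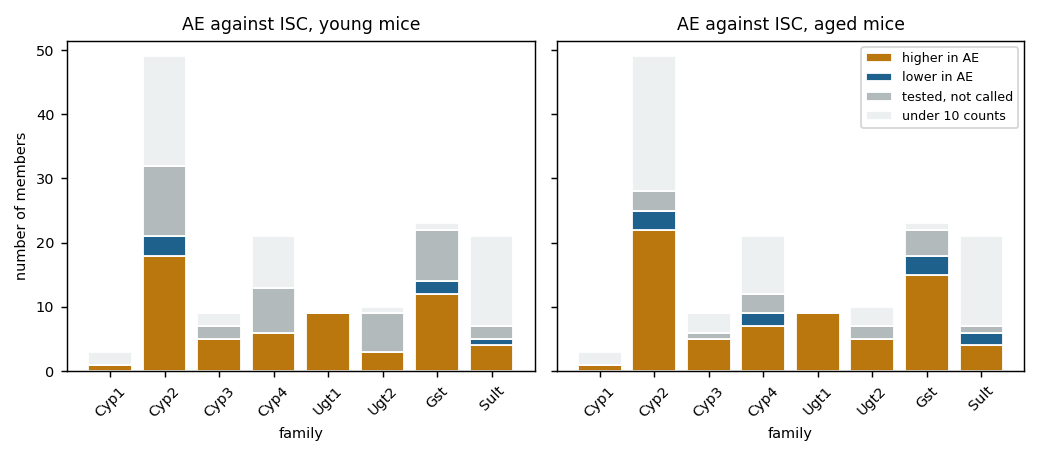
Number of members of each family (vertical axis) called higher in AE, called lower in AE, tested without a call, or below a total of 10 counts, in young mice (left) and aged mice (right). All 9 *Ugt1* rows were higher at both ages, and the *Cyp2* family held more calls than any other family at each age.

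The *Cyp1* family, which oxidises polycyclic aromatic hydrocarbons and is the classic target of AHR, was represented by *Cyp1a1* alone. *Cyp1a1* (chromosome 9, 57687928 to 57703824) was at 0.701, 1.82 and 0.786 CPM in the young ISC libraries and at 16.0, 128 and 14.4 CPM in young AE. In aged mice it was at 0.0561, 0.864 and 0 CPM in ISC and 12.7, 24.0 and 15.6 in AE. Every AE library was above every ISC library, and young AE 2 stood far above the other AE libraries. The log2(AE/ISC) value was 5.56 (SE 1.01, FDR = 0.00234) in young and 5.99 (SE 0.80, FDR = 0.000116) in aged mice. *Cyp1a2* had a total below 10 counts in either comparison, and *Cyp1b1* had no count.

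The *Cyp2* family is the largest and most varied of the P450 families. Of 32 members tested in young mice 18 were higher in AE and 3 lower, and in aged mice 22 and 3 of 28. *Cyp2d26* (chromosome 15, 82790107 to 82794245) had the highest mean CPM of the family over the 12 libraries, and was at 33.6, 23.6 and 83.9 CPM in the libraries of young ISC and 528, 581 and 883 in those of young AE. In aged mice its ISC libraries were at 14.7, 49.1 and 24.5 and its AE libraries at 757, 999 and 905 CPM. The log2 ratio of AE to ISC was 3.82 (SE 0.50, FDR = 0.000595) in young and 4.84 (SE 0.44, FDR = 8.42e-06) in aged mice. *Cyp2b10* (chromosome 7, 25897620 to 25926624), the standard target gene of CAR, was at 28.4, 17.9 and 52.9 CPM in the libraries of young ISC and 627, 833 and 735 in those of young AE. Its aged libraries were at 3.06, 17.6 and 9.73 CPM in ISC and 766, 758 and 834 in AE, and AE exceeded ISC by 4.47 (SE 0.42, FDR = 0.000187) and 6.22 (SE 0.58, FDR = 1.00e-05) on the log2 scale in young and aged mice. The *Cyp2c* enzymes, several of which make epoxides of arachidonic acid, were higher in AE in 8 of 10 tested members in young and 8 of 9 in aged mice, and 1 was lower. *Cyp2c65* (chromosome 19, 39061015 to 39093944) was at 92.5 ± 79.0 CPM in young ISC, compared with 636 ± 371 in young AE, with a log2 ratio of 2.78 (SE 0.64, FDR = 0.00709). In aged mice it was at 75.2 ± 32.8 against 678 ± 201 CPM, with a log2 ratio of 3.10 (SE 0.35, FDR = 3.85e-05). Of the *Cyp2* members at the limit of detection in ISC, *Cyp2j5* and *Cyp2f2* were chosen after their values were seen. Both were at the limit of detection in every ISC library, and in young AE they were at least 22.4-fold and 16.5-fold higher, or 14.7-fold for *Cyp2j5* without young AE 1.

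The *Cyp3a* enzymes, which oxidise the widest range of drugs, and the *Cyp4* enzymes, which mostly hydroxylate fatty acids, were mostly higher in AE. *Cyp3a11* (chromosome 5, 145854426 to 145879964), a target of PXR and the usual mouse counterpart of human CYP3A4, was at 22.9, 21.1 and 142 CPM in the libraries of young ISC and 781, 999 and 2471 in those of young AE. Its aged ISC libraries were at 4.99, 26.0 and 9.42 and its aged AE libraries at 2235, 2354 and 1823 CPM, so no AE library came near ISC. The log2 fold change was 4.52 (SE 0.88, FDR = 0.00332) in young and 7.24 (SE 0.64, FDR = 7.01e-06) in aged mice. *Cyp3a13* (chromosome 5, 137892932 to 137921619) was at 68.3 ± 35.9 against 1404 ± 269 CPM in young ISC and AE, a log2 ratio of 4.36 (SE 0.42, FDR = 0.000198), and at 33.7 ± 20.1 against 1756 ± 372 CPM in aged mice, a log2 ratio of 5.63 (SE 0.49, FDR = 6.92e-06). *Cyp3a25* rose from 31.2 ± 29.0 CPM in ISC to 607 ± 289.9 CPM in AE of young mice, a log2 ratio of 4.28 (SE 0.71, FDR = 0.00148), and from 13.6 ± 6.16 to 887 ± 90.3 CPM in aged mice, a log2 ratio of 5.96 (SE 0.38, FDR = 1.15e-06). Of the *Cyp3* family, 5 of 7 tested members were higher in AE in young and 5 of 6 in aged mice, and none was lower in either fit. Of *Cyp4*, 6 of 13 were higher in young mice, and in aged mice 7 of 12 rose and 2 fell.

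*Cyp4f14* (chromosome 17, 32905071 to 32917342) was at 2384, 2369 and 2502 CPM in young AE against 174, 135 and 316 in young ISC, a log2 ratio of 3.54 (SE 0.36, FDR = 0.000244). In aged mice its AE libraries were at 2520.0, 2686 and 3073 and its ISC libraries at 71.3, 195 and 120.5 CPM, a log2 ratio of 4.34 (SE 0.39, FDR = 7.66e-06). *Cyp4v3*, a fatty acid hydroxylase, was at 131 ± 51.5 and 1376 ± 327 CPM in young ISC and AE, a log2 ratio of 3.39 (SE 0.35, FDR = 0.000243), and at 107 ± 21.2 and 1912 ± 203 CPM in aged mice, a log2 ratio of 4.08 (SE 0.26, FDR = 1.05e-06). *Cyp4b1* was at 25.7 ± 20.3 and 399 ± 187 CPM in young mice and at 11.7 ± 3.91 and 453 ± 55.1 CPM in aged mice, with log2 fold changes of 3.96 (SE 0.60, FDR = 0.00103) and 5.20 (SE 0.28, FDR = 6.03e-07). Within AE the levels of *Cyp4f14* were close between libraries, unlike those of the fatty acid hydroxylase *Cyp4a10* described further on.

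Among the glucuronosyltransferases, the *Ugt1a* locus, whose product UGT1A1 conjugates bilirubin, was higher in AE in each of its 9 rows, by 1.90 to 1.93 on the log2 scale in young and 2.08 to 2.12 in aged mice. The *Ugt1a1* row was at 256, 336 and 641 CPM in the libraries of young ISC and 1093, 1301 and 2242 in those of young AE, and at 333, 538 and 274 in aged ISC and 1717, 2275 and 1151 in aged AE. The log2 ratio of AE to ISC was 1.91 (SE 0.42, FDR = 0.00567) in young and 2.10 (SE 0.34, FDR = 0.000432) in aged mice. *Ugt1a7c* and *Ugt1a6a*, the other rows with the highest CPM, gave 1.93 and 1.90 in young and 2.12 and 2.08 in aged mice. Reads beyond the lowest row, which can only come from exons that the lowest row lacks, put *Ugt1a7c* at 89.2 ± 53.2 CPM in young ISC, compared with 344 ± 178 CPM in young AE. For *Ugt1a1* the same reads gave 55.3 ± 20.2 and 195 ± 38.5 CPM. In the *Ugt2* family 3 of 9 tested members were higher in AE in young and 5 of 7 in aged mice. *Ugt2b34* (chromosome 5, 86889767 to 86906937) was at 332 ± 122 against 1443 ± 429 CPM in young ISC and AE, a log2 ratio of 2.12 (SE 0.35, FDR = 0.00143), and at 276 ± 95.3 against 1688 ± 428 CPM in aged mice, a log2 ratio of 2.54 (SE 0.32, FDR = 7.31e-05). *Ugt2a3* gave a log2 ratio of 2.32 (SE 0.35, FDR = 0.00100) in young and 2.29 (SE 0.29, FDR = 7.30e-05) in aged mice. *Ugt2b5*, at 40.8, 38.5 and 265 CPM in young AE, was called in aged mice with a log2 ratio of 4.01 (SE 0.94, FDR = 0.00413). In young mice its log2 ratio was 2.93 (SE 1.17, FDR = 0.0641), or FDR = 2.52e-05 with the library code as a replicate block. The block assumes that a code pairs libraries, which the sources do not state. *Ugt2b38* was at the limit of detection in every ISC library and at 0.573, 0.827 and 0.443 CPM in young AE, at least 3.21-fold higher. It was called in young mice (FDR = 0.0403), and with the block its FDR was 0.0619. *Ugt2b35*, chosen after its values were seen as a member that passed the test at neither age, was at 83.2 ± 24.1 and 118 ± 88.7 CPM in young ISC and AE, and gave a log2 ratio of 0.51 (SE 0.49, FDR = 0.402) and 0.35 (SE 0.42, FDR = 0.492).

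Glutathione S-transferases differed less between the cell types than P450 genes did in their medians: the median log2 fold change was 1.69 over 22 tested *Gst* members in young and 1.76 in aged mice, against 3.48 over 53 and 4.39 over 47 *Cyp* members, a difference that was not tested. Many *Cyp* members were at the limit of detection in every ISC library, where fitted values depend on the prior count. Of the tested *Gst* members only *Gsto2* was, in young mice. These family medians were not set to bounds. Of the 22, 12 were higher in AE and 2 lower in young mice, against 15 and 3 in aged mice. *Gsto1* (chromosome 19, 47854970 to 47864790) was at 297, 401 and 452 CPM in the libraries of young ISC and 476, 609 and 801 in those of young AE, and the lowest AE library lay just above the highest ISC library. The log2 ratio of AE to ISC was 0.71 (SE 0.26, FDR = 0.0475) in young and 0.65 (SE 0.23, FDR = 0.0296) in aged mice, and under upper-quartile scaling the young value was 0.59 with FDR = 0.0783. *Gstp1*, of the pi class, gave a log2 ratio of 0.85 (SE 0.28, FDR = 0.0335) and 0.80 (SE 0.27, FDR = 0.0249), and under upper-quartile scaling 0.72 with FDR = 0.0531 in young mice. *Gsta4*, which conjugates lipid peroxidation products such as hydroxynonenal, was at 9.94, 13.7 and 84.3 CPM in the libraries of young ISC and 195, 212 and 391 in those of young AE, a log2 ratio of 2.88 (SE 0.79, FDR = 0.0151). In aged mice it was at 8.44, 64.9 and 12.4 CPM in ISC and 228, 296 and 104 CPM in AE, a log2 ratio of 2.81 (SE 0.72, FDR = 0.00655). The mu-class genes *Gstm3* and *Gstm1* were the most abundant *Gst* members in AE per kilobase, and were called in aged mice with log2 ratios of 3.11 (SE 0.56, FDR = 0.000832) and 2.81 (SE 0.58, FDR = 0.00188). In young mice their log2 ratios were 2.53 (SE 0.99, FDR = 0.0602) and 2.54 (SE 1.07, FDR = 0.0766), and with the replicate block their FDR was 5.95e-05 and 0.000265. *Gstt3*, *Gstz1*, *Gstm2* and *Gstp3* passed the test at neither age, while with the replicate block *Gstz1* was called lower in aged AE (FDR = 0.0137).

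Of the sulfotransferases, only 7 of 21 had enough counts for a test. Those higher in AE at both ages were *Sult1b1*, *Sult1d1*, *Sult2b1* and *Sult6b2*. *Sult1b1* (chromosome 5, 87513339 to 87538195), which sulfates phenols and thyroid hormones, was at 54.0, 51.5 and 122 CPM in the libraries of young ISC and 529.8, 644 and 592 in those of young AE, a log2 ratio of 2.95 (SE 0.36, FDR = 0.000452). In aged mice it was at 36.3, 91.3 and 49.2 CPM in ISC and 666, 603 and 589 CPM in AE, a log2 ratio of 3.32 (SE 0.33, FDR = 1.64e-05). *Sult1d1*, which acts on catecholamines and whose promoter is shown above, was at 110.1 ± 61.5 and 468 ± 127 CPM in young ISC and AE, a log2 ratio of 2.09 (SE 0.40, FDR = 0.00284), and at 104 ± 25.3 and 455 ± 70.7 CPM in aged mice, a log2 ratio of 2.06 (SE 0.23, FDR = 3.36e-05). *Sult2b1*, a hydroxysteroid and cholesterol sulfotransferase, had the lowest FDR of the members in young mice, with a log2 ratio of 3.40 (SE 0.24, FDR = 0.000110), and gave a log2 ratio of 4.17 (SE 0.27, FDR = 1.23e-06) in aged mice.

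A few members went the other way and were higher in ISC. *Cyp2e1* (chromosome 7, 140763739 to 140774987), which oxidises ethanol and other small molecules, was at 39.3, 22.8 and 46.4 CPM in the young ISC libraries and at 0.0818, 0.827 and 0.167 CPM in young AE. In aged mice it was at 51.1, 27.5 and 13.4 CPM in ISC and 0.285, 0.179 and 0 in AE, where every library was at the limit of detection. The log2(AE/ISC) value was -6.99 (SE 0.65, FDR = 0.000187) in young and -7.58 in aged mice (FDR = 1.19e-05), and the counts bound the aged difference at at least 93.7-fold lower in AE, or 62.4-fold without aged ISC 1. *Gstcd* was at 29.8, 21.6 and 23.0 CPM in young ISC, compared with 4.99, 8.44 and 4.07 in young AE, a log2 ratio of -2.11 (SE 0.31, FDR = 0.000885), and at 20.8, 18.3 and 27.7 against 3.90, 3.32 and 3.38 CPM in aged mice, a log2 ratio of -2.73 (SE 0.23, FDR = 4.91e-06). *Gstm5* was at 26.2, 37.4 and 29.0 CPM in young ISC, compared with 10.7, 17.5 and 11.1 in young AE, a log2 ratio of -1.25 (SE 0.25, FDR = 0.00382), and gave a log2 ratio of -1.38 (SE 0.20, FDR = 0.000198) in aged mice. Neither gene shares a stretch of 50 bases with another gene, and the groups did not overlap at either age. *Cyp2w1*, a P450 otherwise known from fetal gut and colon tumours, was at 0.765, 0.341 and 1.07 CPM in young ISC and at the limit of detection in every AE library, at least 2.92-fold lower in young and 2.39-fold lower in aged AE (1.47-fold without aged ISC 5). *Sult1a1*, which sulfates phenols, was at 0.637, 3.52 and 0.954 CPM in the libraries of young ISC and 0, 0.165 and 0.155 in those of young AE, a log2 ratio of -3.75 (SE 0.96, FDR = 0.0112), and at 1.81 ± 0.370 and 0.200 ± 0.191 CPM in aged mice, a log2 ratio of -3.24 (SE 0.73, FDR = 0.00331). *Cyp2c70*, which makes muricholic acids in mouse liver, was low throughout, at 1.53 ± 0.949 and 0.350 ± 0.219 CPM in young ISC and AE, a log2 ratio of -2.29 (SE 0.77, FDR = 0.0352), and gave a log2 ratio of -2.98 (SE 0.97, FDR = 0.0214) in aged mice. *Cyp4f15*, *Cyp4a32*, *Sult1c2* and *Gstt2* were called lower in AE in aged mice, with log2 ratios of -1.79 (SE 0.54, FDR = 0.0148), -2.56 (SE 0.61, FDR = 0.00434), -2.46 (SE 0.46, FDR = 0.00101) and -0.50 (SE 0.19, FDR = 0.0370). In young mice their log2 values were -1.17, -0.86, -1.58 and -0.39, and with the replicate block *Cyp4f15* (FDR = 0.0306) and *Sult1c2* (FDR = 0.0223) were called there too. The aged call of *Gstt2* was lost with DESeq2 (FDR = 0.0864), with RLE scaling (FDR = 0.0746), in the fit on all 12 libraries (FDR = 0.0941) and without any of 4 libraries, and that of *Cyp4f15* in the fit on all 12 libraries (FDR = 0.0548) and without aged AE 1 (FDR = 0.0519). With only genes at 1 CPM or more in 3 libraries tested, the members lower in AE in young mice were 3.

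**Figure D2:**
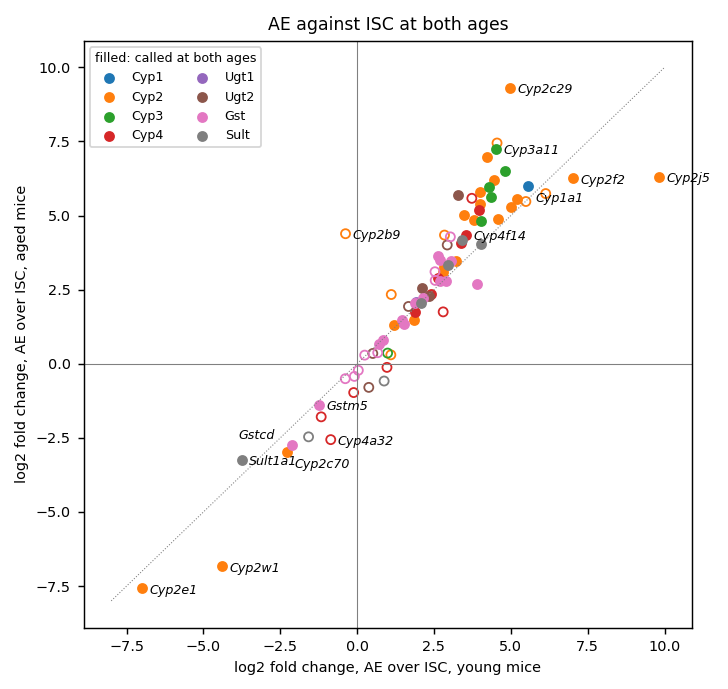
Log2 fold change of AE over ISC in young mice (horizontal axis) and aged mice (vertical axis) for the 84 genes tested at both ages, with the *Ugt1a* locus drawn as *Ugt1a1*; filled points were called at both ages, colours mark families and the dotted line marks equal values. *Cyp2e1* lies lowest, at -6.99 and -7.58; values of members at the limit of detection in 1 cell type, among them *Cyp2j5*, *Cyp2j12*, *Cyp2f2*, *Cyp2w1*, *Ugt2b38* and aged *Cyp2e1*, depend on the prior count.

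At both ages 92 members were tested, and 87 of them had the same sign. The log2 fold change was larger in size in aged than in young mice in 70 of the 92, which count the 9 *Ugt1a* rows separately. The share over all genes was not computed. Calls over all genes were also more frequent in aged mice, at 30.0% higher and 34.1% lower, against 27.7% and 25.4% in young mice. The difference between the ages, tested below, was called for none of the members. Members lie mostly in clusters: with gaps of up to 500 kb, 117 of the 145 fell into 14 clusters of 3 or more. Neighbours in a cluster did not always move together. In the *Cyp2c* cluster (chromosome 19, 39007019 to 40187333, 14 members) 7 were higher in AE at both ages while *Cyp2c70*, its last gene, was lower. In the *Gstm* cluster (chromosome 3, 107895821 to 108044894, 7 members) 3 were higher at both ages while *Gstm5*, at its edge, was lower. In the *Cyp4f* cluster (chromosome 17, 32468462 to 32947402, 8 members) *Cyp4f15* was lower in aged AE between *Cyp4f40* and *Cyp4f14*, which were higher. The *Ugt2* and *Sult1* genes of chromosome 5 (86889767 to 87591594, 13 members) had 5 higher at both ages and none lower in either. None of the 8 genes of the *Sult2a* cluster (chromosome 7, 13623967 to 14494230) had enough counts for a test.

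Genes that serve these enzymes were listed with earlier results of these data known. Of 15 partners, which supply electrons, cofactors or activated donors, 10 were higher and 1 lower in AE in young mice, and 11 higher and 1 lower in aged mice. *Por*, the reductase that passes electrons to microsomal P450 enzymes, was at 122 ± 77.2 CPM in young ISC, compared with 706 ± 553 in young AE, a log2 ratio of 2.54 (SE 0.63, FDR = 0.00993), and gave a log2 ratio of 2.99 (SE 0.39, FDR = 9.63e-05) in aged mice. *Ugdh*, which makes UDP-glucuronic acid, gave a log2 ratio of 2.74 (SE 0.60, FDR = 0.00555) and 3.15 (SE 0.35, FDR = 3.34e-05), and *Papss2*, which makes the sulfate donor PAPS, gave a log2 ratio of 3.51 (SE 0.57, FDR = 0.00140) and 3.77 (SE 0.88, FDR = 0.00405). Of 14 regulators, 9 of 14 tested were higher in AE in young mice and 8 of 13 in aged mice, and none was lower. *Nr1i3* was at 23.8 ± 13.0 and 172 ± 48.9 CPM in young ISC and AE, a log2 ratio of 2.85 (SE 0.39, FDR = 0.000690), and gave a log2 ratio of 3.00 (SE 0.26, FDR = 5.69e-06) in aged mice. *Nr1i2* gave a log2 ratio of 1.41 (SE 0.21, FDR = 0.00105) and 1.43 (SE 0.15, FDR = 1.98e-05), and *Nfe2l2* 1.06 (SE 0.17, FDR = 0.00114) and 1.08 (SE 0.18, FDR = 0.000535). *Ahr* was at 19.6 ± 0.361 CPM in young ISC, compared with 17.9 ± 4.01 in young AE, with a log2 difference of -0.13 (SE 0.20, FDR = 0.611), and of -0.12 (SE 0.19, FDR = 0.616) in aged mice, while its target *Cyp1a1* differed between the cell types. Of 28 tested enzymes of other families, 17 rose and 1 fell in young AE, and 20 rose and 2 fell in aged AE. *Ces2e*, a carboxylesterase, gave a log2 ratio of 2.82 (SE 0.50, FDR = 0.00200) and 3.23 (SE 0.37, FDR = 3.59e-05). *Nqo1* and *Ephx1* were called in aged mice with log2 ratios of 1.40 (SE 0.47, FDR = 0.0257) and 1.85 (SE 0.70, FDR = 0.0398), and gave a log2 ratio of 1.44 (SE 0.64, FDR = 0.0889) and 1.96 (SE 1.04, FDR = 0.143) in young mice. Of 7 efflux transporters, 4 were higher and 2 lower in AE at each age.

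Aged ISC were then compared with young ISC. No member was called among 80 tested, beside 0% of all 15552 genes. At an unadjusted P under 0.05 there were 4 members, all lower in aged ISC, beside 4.47% of all genes. DESeq2 called 1 member, lower in aged ISC, beside 11 genes higher and 47 lower of all 15552. The groups did not overlap for 2 members lower and 0 higher in aged ISC, beside 4.44% and 4.42% of all genes. Of the 80, 58 had a lower and 22 a higher fitted value in aged ISC, with a median log2 fold change of -0.17, against 0.01 over all genes. The median was 0.31 without young ISC 3, so its sign rested on that library. With the *Ugt1a* rows counted once, 50 of 72 members were lower and 22 higher, at a median of -0.25. Fitted values of the 20 enterocyte markers were lower in aged ISC for 19, with a median of -0.73, none called, and their summed level was 5068 to 11558 CPM in the young libraries and 2454 to 6752 CPM in the aged ones. Their part in the members' values was not tested.

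The 5 members with the lowest P in ISC were all P450 genes called higher in AE. *Cyp2c29*, an arachidonic acid epoxygenase, was at 1.27, 0.397 and 6.06 CPM in young ISC and at 0.0281, 0 and 0.133 CPM in aged ISC, where all libraries were at the limit of detection. Young ISC 3 held most of the reads, yet the groups did not overlap. The log2 fold change of aged over young was -5.46 (SE 1.22, unadjusted P = 0.00171, FDR = 0.677) in the quasi-likelihood test and -5.59 with FDR = 0.00113 in DESeq2, while over the other alternatives the FDR lay between 0.218 and 1.000. The counts bound the difference at at least 15.9-fold lower, or 5.16-fold without young ISC 3. In AE, where the gene is abundant, it was at 25.0, 38.7 and 180.0 CPM in young and 35.2, 53.9 and 29.4 CPM in aged mice. *Cyp2d22* was at 6.50, 3.35 and 13.1 CPM in young and 1.49, 2.86 and 3.64 in aged ISC, a log2 ratio of -1.53 (SE 0.52, unadjusted P = 0.0167, FDR = 1.00), and the groups overlapped slightly. *Cyp2b10* gave a log2 ratio of -1.71 (SE 0.59, unadjusted P = 0.0183, FDR = 1.00), with its 3 aged libraries below the 3 young ones. The highest aged library lay only just below the lowest young one. *Cyp3a11* gave a log2 ratio of -2.21 (SE 0.83, unadjusted P = 0.0276, FDR = 1.00) and *Cyp4b1* -1.13 (SE 0.50, unadjusted P = 0.0511, FDR = 1.00). In both of the latter the aged and young libraries overlapped, and young ISC 3 was the highest.

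In AE no member was called among 101 tested, beside 0% of all 16265 genes. DESeq2 called no member, beside 12 genes higher and 6 lower in aged AE of all 16265. At an unadjusted P under 0.05 there were 3, beside 4.97% of all genes. The groups did not overlap for 5 members higher and 2 lower in aged AE, beside 4.01% and 6.94% of all genes. The median log2 fold change was -0.01, with 50 members higher and 51 lower, and 0.07 with members at the limit of detection set to their bound. It was 0.55 without young AE 3. Counting the *Ugt1a* rows once gave 42 members higher and 51 lower, at a median of -0.02. Fitted values of the 20 enterocyte markers lay above 0 for all 20, at a median of 0.29, none called. Those of the 14 proliferation markers all lay below 0, at a median of -1.42, none called. The proliferation markers summed to 167, 486 and 93.6 CPM in the young and 118, 116 and 112 CPM in the aged AE libraries. Young AE 2 was thus far the highest, and young AE 3 lay below every aged library. The part of either list in the members' values was not tested. *Cyp2s1* (chromosome 7, 25802475 to 25816913), a P450 of epithelia, was at 158, 158 and 149.6 CPM in young AE and 199, 221 and 195 in aged AE. The groups were close within themselves and apart from each other, with a log2 fold change of 0.42 (SE 0.14, unadjusted P = 0.0164, FDR = 0.833). *Cyp4f40* was at 110.4, 97.9 and 113 CPM in young and 84.4, 79.7 and 78.3 in aged AE, a log2 ratio of -0.39 (SE 0.14, unadjusted P = 0.0201, FDR = 0.833). *Cyp2u1*, which hydroxylates long-chain fatty acids, was at 20.8, 57.2 and 62.0 CPM in young and 86.6, 98.4 and 68.3 CPM in aged AE, a log2 ratio of 0.86 (SE 0.37, unadjusted P = 0.0428, FDR = 0.833). *Cyp4v3* gave a log2 ratio of 0.49 (SE 0.22, unadjusted P = 0.0554, FDR = 0.833). *Cyp1a1* gave a log2 ratio of -1.58 (SE 0.78, unadjusted P = 0.0742, FDR = 0.833), and 0.23 without young AE 2, the library that held 128 CPM, so its sign rested on that library.

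The difference of the age effect between AE and ISC was tested over all 12 libraries. No member was called among 103 tested, beside 0.00575% of all 17377 genes (1 gene). DESeq2 called none of the members, beside 40 of all 17377 genes with the age effect higher in AE and 3 with it lower. At an unadjusted P under 0.05 there were 8 members, all with the age effect higher in AE, beside 1.85% of all genes in that direction and 2.51% in the other. Of the 103, 70 had a positive and 33 a negative fitted value, with a median of 0.25, against -0.09 over all genes. Of the enterocyte markers 20 of 20 were also positive, with a median of 1.00, and all 14 proliferation markers were negative, with a median of -1.31. The 9 T cell markers, which summed to at most 52.3 CPM in any library, were all positive, with a median of 3.63. None was called in these lists, and their part in the members' values was not tested. The median of the members was -0.34 without young ISC 3 and 0.68 without young AE 3. Counting the *Ugt1a* rows once gave 62 positive and 33 negative members, at a median of 0.26. The lowest P, with the log2 difference of the age effect (AE minus ISC), were those of *Cyp2d22*, 1.84 (SE 0.60, unadjusted P = 0.00934, FDR = 1.00), *Cyp2b9*, 4.92 (SE 1.73, unadjusted P = 0.0139, FDR = 1.00), and *Cyp3a11*, 2.80 (SE 1.04, unadjusted P = 0.0185, FDR = 1.00). *Cyp2b9* rested on at most 8 counts in any library. With the replicate block the FDR of *Cyp3a11* was 0.138. The comparisons by age and by cell type share libraries, so they are not separate evidence.

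**Figure D3:**
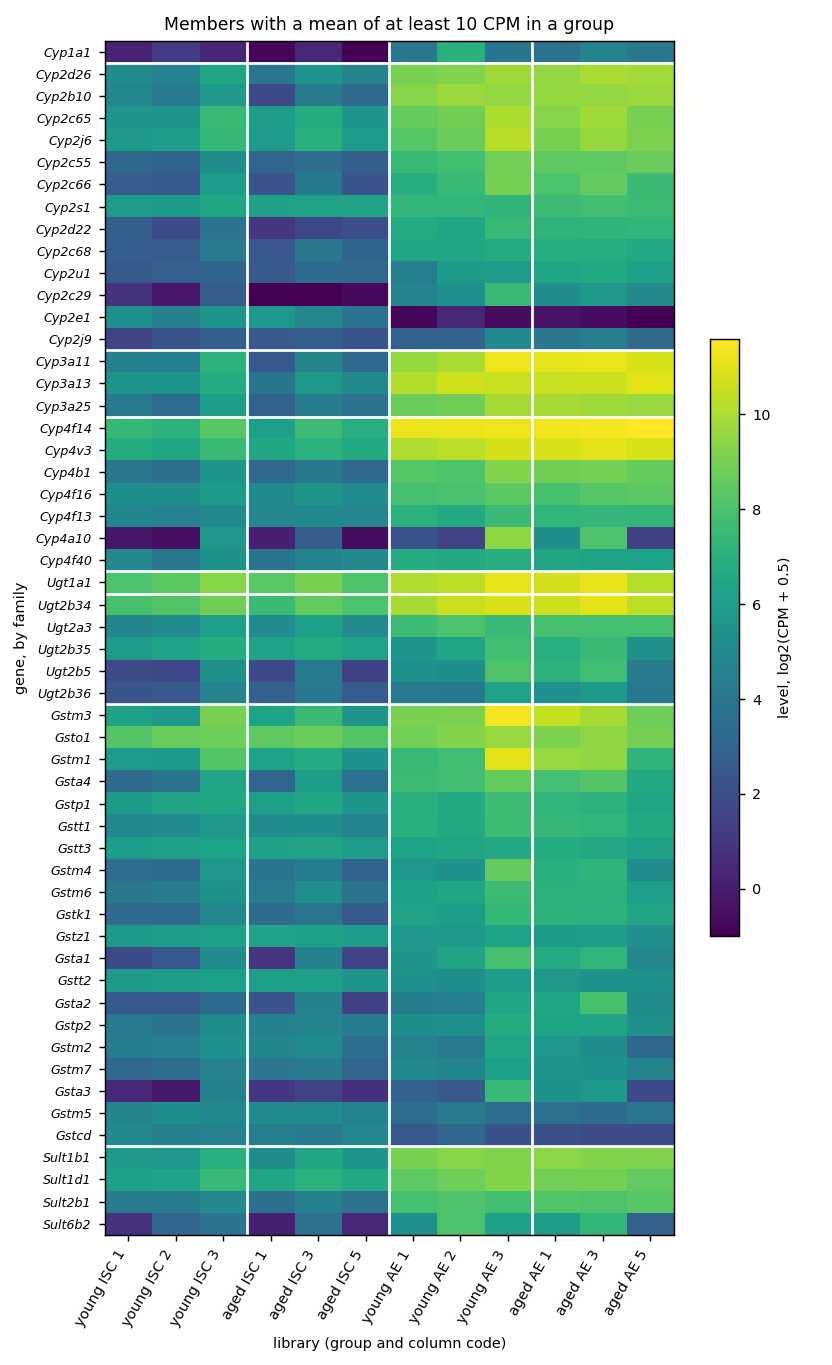
Level of 54 members with a mean of at least 10 CPM in a group, as log2(CPM + 0.5), in each library (columns, by group and column code), with genes in rows by family and the *Ugt1a* locus drawn as *Ugt1a1*. AE columns are brighter for most rows, *Cyp2e1* is bright in ISC only, and the columns of young ISC 3 and young AE 3 are brighter than their neighbours for many rows.

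Libraries of 1 group differed from each other more in these genes than in genes at large. Among members with a mean of at least 1 CPM, with the *Ugt1a* locus counted once, the median coefficient of variation was 52.9% in young (61 members) and 39.4% in aged ISC (59), and 51.5% in young (65) and 27.6% in aged AE (65), against 14.9%, 16.4%, 19.3% and 15.1% over all such genes. The higher values went mostly one way. Young ISC 3 was the highest of its group in 55 of 61 members (90.2%), against 34.7% of all genes, and young AE 3 in 51 of 65 (78.5%), against 33.9%. Aged ISC 3 was the highest in 48 of 59 (81.4%), against 31.7%, and aged AE 3 in 38 of 65 (58.5%), against 29.6%. Of 55 members at 1 CPM or more in all groups, young code 3 was the highest in both cell types in 42, against 18.0% of 11236 genes, and aged code 3 in 29, against 10.9%. These counts were chosen after the values were seen, and members of a cluster are not independent. The sources do not state which libraries come from the same mouse. Code 3 was the deepest library of its group in young ISC (14133772 counts), young AE and aged AE (15473227 counts), and the shallowest in aged ISC (14373053 counts), and the part of depth was not tested.

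**Figure D4:**
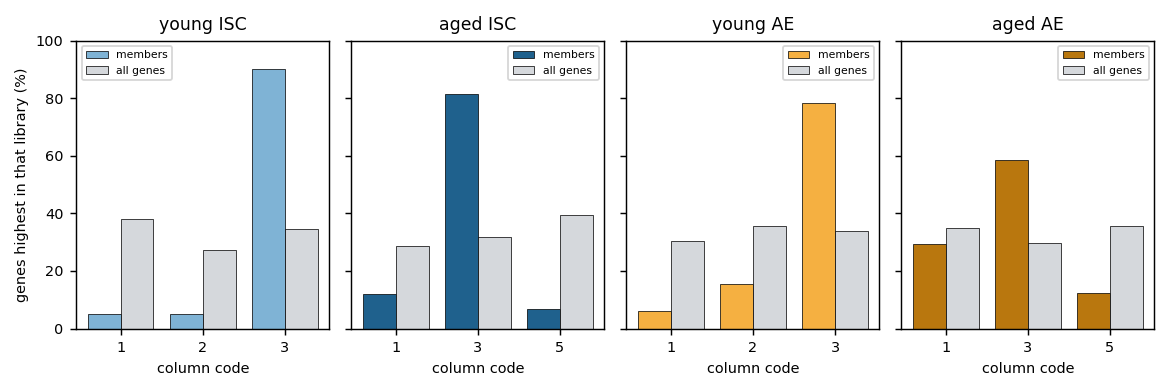
Share of genes whose highest CPM in a group was in each library (vertical axis, %), by column code, for members (coloured bars) and all genes (grey bars) with a mean of at least 1 CPM in that group. Code 3 holds 90.2% of the members in young and 81.4% in aged ISC, and 78.5% and 58.5% in AE, while all genes spread over the libraries.

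The genes that varied most between libraries, chosen here by their spread, were of several families. *Cyp4a10* (chromosome 4, 115518264 to 115533649), a target of PPARα, was at 0.382, 0.227 and 52.3 CPM in the libraries of young ISC and 4.17, 2.48 and 697 in those of young AE. In aged mice it was at 0.589, 5.99 and 0.178 CPM in ISC and 38.1, 269.8 and 2.29 in AE. In each group the library of code 3 was the highest, and the span within young AE was 281-fold. *Gsta3* was at 0.828, 0.454 and 22.3 CPM in the libraries of young ISC and 7.28, 5.13 and 180.4 in those of young AE, and at 1.46, 2.48 and 1.15 CPM in aged ISC and 44.1, 54.5 and 3.05 CPM in aged AE. *Gstm3* was at 73.4, 53.1 and 509 CPM in the libraries of young ISC and 523, 549.8 and 2610.4 in those of young AE, and at 78.4, 189 and 46.6 CPM in aged ISC and 1429.5, 965 and 448 CPM in aged AE. The order in aged AE was different for it, with code 1 the highest. *Sult6b2* followed another order in young AE, with 39.4, 259 and 74.3 CPM, where code 2 was the highest. Not every member varied: *Cyp2s1*, *Cyp4f14* and *Sult2b1* stayed within a narrow range in AE.

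Other genes moved with these libraries. The summed level of the 20 enterocyte markers was highest in young ISC 3 (11558 CPM, against 5313 and 5068) and in aged ISC 3 (6752 CPM, against 2454 and 4226). In AE it was 79672, 95374 and 104192 CPM in the young and 104950, 128035 and 120971 CPM in the aged libraries, a span far smaller than that of *Cyp4a10*. *Ppara* was at 26.0, 34.7 and 63.8 CPM in young AE and 42.8, 84.0 and 33.6 in aged AE, and *Nqo1*, a target of NRF2, at 39.4, 61.7 and 186 CPM in young and 99.6, 141 and 29.7 CPM in aged AE. The receptor *Ahr* was nearly level, at 15.6, 22.6 and 15.6 CPM in young and 16.6, 20.9 and 16.9 CPM in aged AE. The part of these genes in the members' levels was not tested.

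**Figure D5:**
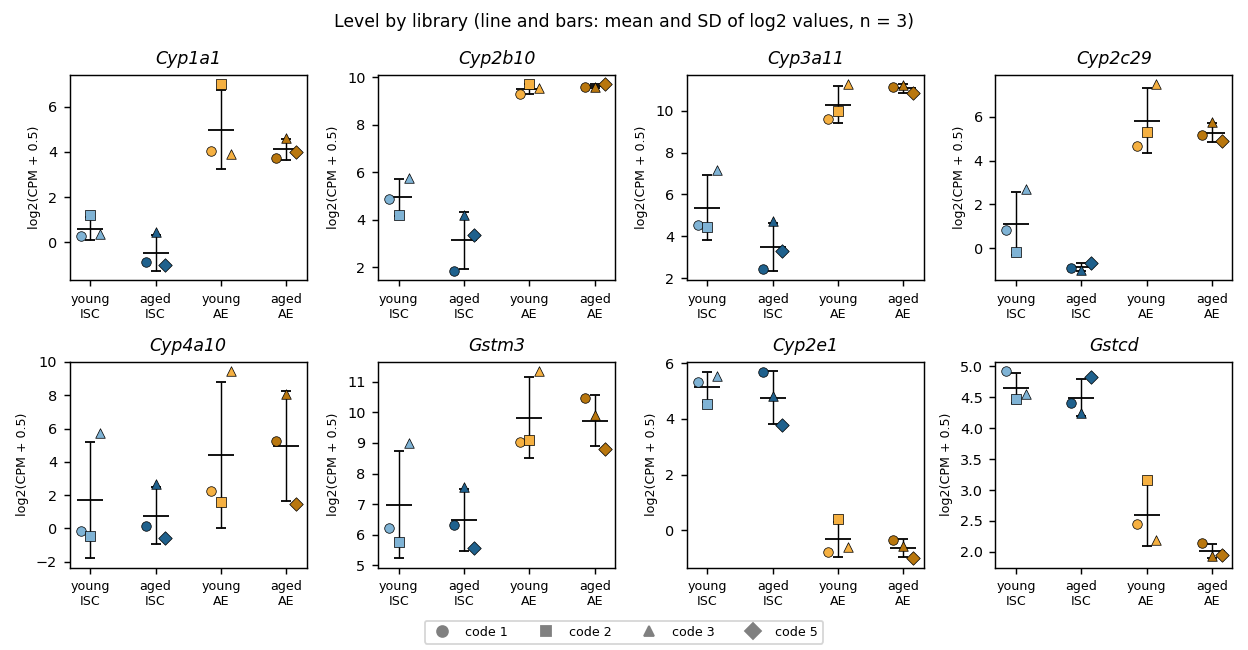
Level of 8 members as log2(CPM + 0.5) in each library, by group, with marker shapes for column codes; lines and bars give mean and SD of the log2 values (n = 3). *Cyp2b10* and *Cyp3a11* separate AE from ISC in every library, *Cyp2e1* and *Gstcd* do so in the other direction, and *Cyp4a10* spreads widely within groups with code 3 at the top of each.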

How the data were processed

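Poly(A) RNA of sorted cells was sequenced from directional libraries made with 14 PCR cycles. Reads were trimmed with Trim Galore 0.4.4 and mapped to GRCm38 with HISAT2 2.1.0 (versions per the submitters' processing notes), and the authors counted uniquely mapped reads over merged exons in SeqMonk, so the deposited values are raw counts per gene. All 12 columns were used (0 left unused), each assigned by its own name. Totals ran from 11893817 to 110794420 counts, and limits of 3 counts cover counting error only.

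Genes whose counts summed to 10 or more in the libraries compared entered the test in edgeR 4.0.16 (TMM scaling, quasi-likelihood test, Benjamini-Hochberg adjustment over all genes, FDR threshold 0.05) in R 4.3.3, and DESeq2 1.42.0 was an alternative. The scripts were tested on simulated data. AE were compared with ISC at each age, aged with young mice in each cell type, and the age effects with each other over 12 libraries. Single-gene permutation tests of 3 against 3 cannot go below P = 0.1 and were not used. Named were, in each family and comparison of cell types, the 3 called members of highest mean CPM in each direction, the 5 members of lowest P for age in each cell type, the 3 of lowest P for the difference, and a fixed set of other pathway genes and markers. Members and gene lists were chosen with earlier results of these data known.

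Deviations from the group means of libraries with the same code correlated with r from 0.229 to 0.471 in all 6 pairs of ISC and AE libraries. In 12 pairs of different codes r was -0.524 to 0.241, so the ranges overlapped. Deviations within a group cancel out, which lowers r between different codes when the same codes correlate. The pairs of different codes are therefore no separate control. A pairing of libraries by code is an assumption drawn from these values. The study's methods give 3 ages per cohort, but neither they nor the labels say which animal a code stands for. A replicate block for the code was added in an alternative model. Other alternatives were other scalings and filters on low counts, a fit on all libraries and leaving out each library. Sequences came from RefSeq (GRCm38.p6) and exon lengths from GENCODE M21.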

Additional observations from a re-analysis of the deposited data

How the results depend on the processing

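Among refits of the named genes, 905 kept their direction and side of the threshold, 36 kept the direction and lost the call, 1 gained a call and 1 changed direction. The last was *Cyp1a1* in aged against young AE, at 0.23 on the log2 scale without young AE 2 (from -2.02 without young AE 3), and the one gained was *Cyp2c29* in aged against young ISC with DESeq2, which made 1 member called there against 0 in edgeR. With only genes at 1 CPM or more in 3 libraries tested, 3 members were called lower in AE in young mice, since fewer members were tested. Leaving out each library gave 47 to 63 members higher and 4 to 7 lower in young mice, 61 to 68 and 8 to 11 in aged mice, and 0 by age. Over the other settings the members higher in AE numbered 51 to 64 in young and 57 to 69 in aged mice. With the library code as a replicate block, which assumes that a code pairs libraries, 64 members were called higher and 8 lower in young mice. All genes called in that model numbered 4673 higher and 4324 lower of 16681. In aged mice 68 members were higher and 11 lower, beside 4987 and 5526 of 15855 genes. For the difference of age effects 0 members were called, beside 21 of 17377 genes. Beside the genes named with it above, the block added *Gsta3*, *Cyp4a10*, *Ugt2b36* and *Cyp2a12* to the calls of young mice. It changed no other member's call.

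The 36 lost calls belonged to *Gsto1*, *Gstp1*, *Gstt2*, *Cyp2c70*, *Ugt2b38*, *Cyp4f15* and *Sult1a1*. In young mice *Gsto1* was at 0.44 (FDR = 0.221) and *Gstp1* at 0.45 (FDR = 0.137) without young AE 3, and each lost the call without any of 3 further young libraries. *Cyp2c70* was at -1.69 (FDR = 0.145) without young ISC 3, and lost the call without any of 3 further young or 4 aged libraries. *Sult1a1* was at -2.69 (FDR = 0.0636) without young ISC 2. *Ugt2b38* was at 2.72 (FDR = 0.107) without young ISC 2, and lost the call without any of 3 further young libraries and with the replicate block. In aged mice *Gsto1* was at 0.46 (FDR = 0.128) without aged AE 3, and lost the call without aged ISC 1 or aged ISC 5 as well. *Gstt2* was at -0.41 (FDR = 0.123) without aged ISC 1, losing the call without any of 3 further aged libraries and in the 3 settings named above. *Cyp4f15* was at -1.65 (FDR = 0.0519) without aged AE 1 and at -1.73 (FDR = 0.0548) in the fit on all 12 libraries. The cause was not tested. Upper-quartile scaling moved the median of all genes in young mice by -0.12. DESeq2 gave no adjusted P for *Cyp1a1*. At this depth, members below 10 counts could not be tested.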
